A study of Mus musculus with 10 samples.

Results

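Transcripts of 10 genes that mark endothelial cells, the cells that line blood vessels, were followed across mouse osteoblast samples of 3 genotypes. The genes are Pecam1, Cdh5, Kdr, Flt1, Tek, Tie1, Emcn, Vwf, Esam and Eng. They were chosen by gene symbol from the platform annotation of an Affymetrix array, which gives them 15 of the 45101 probe sets. Probe sets entered the test where at least 3 of the 10 arrays exceeded the median of the whole table, 7.15 on the log2 scale. Of the 15, 14 were kept, and each of the 10 genes entered the test among 11357 genes through the kept probe set of highest mean signal.

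The labels give 3 samples of mice with osteoblast-specific constitutively expressed beta-catenin (beta-catenin active here), 3 of mice with osteoblast-specific deletion of FoxO1 (FoxO1 deleted) and 4 of wild-type mice. All samples carry the background strain label C5BL6, the tissue label osteoblasts and an age of 2 to 3 days, and their sex is not given. The sources used here do not give the promoter behind the osteoblast-specific changes, nor whether a sample is 1 animal, a pool or a culture. The p-values therefore cover the spread among these arrays alone, and that spread may be technical. The targeted genes differed little in signal: Ctnnb1, the beta-catenin gene, had 14.45 ± 0.04 with active beta-catenin and 14.48 ± 0.09 in wild type, and Foxo1 had 9.87 ± 0.24 with FoxO1 deleted and 10.04 ± 0.07 in wild type (SD, n = 3 and 4; adjusted p = 0.941 and 0.706 in limma). Where these probe sets lie relative to the altered parts of the genes is not known here, so they check neither label. The osteoblast marker Col1a1, the main collagen of bone, lay between 15.04 and 15.35 on the log2 scale across the 10 arrays.

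Endothelial cells in growing bone form capillaries close to the bone-forming cells. Osteoblast-lineage cells are known to secrete vascular endothelial growth factor (VEGF), which endothelial cells read through receptor tyrosine kinases, and vessels with much Pecam1 and Emcn protein are known to run beside osteoblast precursors. The set spans these growth factor receptors (Kdr, Flt1), the receptors of the angiopoietin system (Tek, Tie1), adhesion molecules of endothelial junctions (Pecam1, Cdh5, Esam), a co-receptor of the TGF-beta family (Eng), a surface sialomucin (Emcn) and a clotting protein (Vwf). Some are not confined to endothelium. Pecam1 is also known from platelets and leukocytes, Vwf from megakaryocytes, and Eng from stromal cells. In bulk RNA, fewer cells of a type and less RNA per cell cannot be told apart.

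Both targeted changes are in genes of transcriptional control, so the promoters of the genes with the smallest p-values are shown. Kdr and Eng follow from the rule, and Pecam1 is the other gene it takes. Tie1 and Tek were added after their values were seen, as a receptor pair that differed in its values. Each is the 250 bases before the annotated start, 5′ to 3′, from RefSeq (GRCm38.p6). Capitals mark matches on either strand to AGGAAG or CGGAAG, particular forms of the sites of ETS factors, a family known from endothelial genes. Other and shorter forms were not searched, so a sequence without capitals may still hold an ETS site.
Kdr chr5:75978456-75978705 (- strand): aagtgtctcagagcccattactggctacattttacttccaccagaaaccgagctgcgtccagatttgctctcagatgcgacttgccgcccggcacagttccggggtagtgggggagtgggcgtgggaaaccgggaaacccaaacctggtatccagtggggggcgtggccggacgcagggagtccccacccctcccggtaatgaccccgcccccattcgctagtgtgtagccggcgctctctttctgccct
Eng chr2:32646345-32646594 (+ strand): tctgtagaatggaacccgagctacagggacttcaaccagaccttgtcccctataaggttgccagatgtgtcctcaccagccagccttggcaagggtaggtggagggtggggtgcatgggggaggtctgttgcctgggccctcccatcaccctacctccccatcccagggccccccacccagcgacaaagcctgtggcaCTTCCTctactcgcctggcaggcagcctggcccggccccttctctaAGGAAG
Tie1 chr4:118489850-118490099 (- strand): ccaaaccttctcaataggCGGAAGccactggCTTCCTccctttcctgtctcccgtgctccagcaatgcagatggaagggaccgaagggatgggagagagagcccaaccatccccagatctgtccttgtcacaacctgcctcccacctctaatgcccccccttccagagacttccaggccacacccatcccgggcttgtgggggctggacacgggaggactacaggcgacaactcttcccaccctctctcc
Tek chr4:94739039-94739288 (+ strand): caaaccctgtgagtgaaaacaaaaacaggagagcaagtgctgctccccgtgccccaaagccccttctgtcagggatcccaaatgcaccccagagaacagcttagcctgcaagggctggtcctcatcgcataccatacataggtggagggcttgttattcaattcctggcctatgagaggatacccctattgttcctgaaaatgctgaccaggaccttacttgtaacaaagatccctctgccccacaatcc
Promoters were matched for 6 of the 10 genes, Kdr, Flt1, Tek, Tie1, Emcn and Eng. At least 1 of these ETS motifs lay in the 250 bases of 4 of the 6 (Flt1, Tie1, Emcn and Eng), against 39.2% of all 32851 promoters in the table. By motif, AGGAAG was in 4 of the 6 and in 29.5% of all, and CGGAAG in 1 of the 6 and in 13.6% of all. The TCF/LEF motif CTTTGAT (3.21% of all promoters), the FOXO motif GTAAACA (3.17%) and the GATA motif AGATAA (9.99%) matched on neither strand in any of the 6. A match is a run of letters in this window and says nothing of binding.

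The first comparison asks how active beta-catenin in osteoblasts bears on the endothelial transcripts of the sample. Of the 10 genes, 9 had a higher mean with active beta-catenin than in wild type (51.3% of all genes had), with a median log2 difference of 0.41 where the median over all 11357 genes was 0.01. None of the 10 passed limma's test after Benjamini-Hochberg adjustment over all genes (smallest adjusted p = 0.0824, for Kdr), a call made for 0.784% of all genes (0.599% higher with active beta-catenin). At an unadjusted p under 0.05 there were 6 of 10 genes, all higher with active beta-catenin, against 6.3% of all genes in that direction and 5.79% in the other. These were Kdr, Eng, Pecam1, Tie1, Esam and Cdh5, and for the same 6 every array with active beta-catenin lay above every wild-type array, as for 7.27% of all genes. Vwf alone had a lower mean with active beta-catenin.

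**Figure D1:**
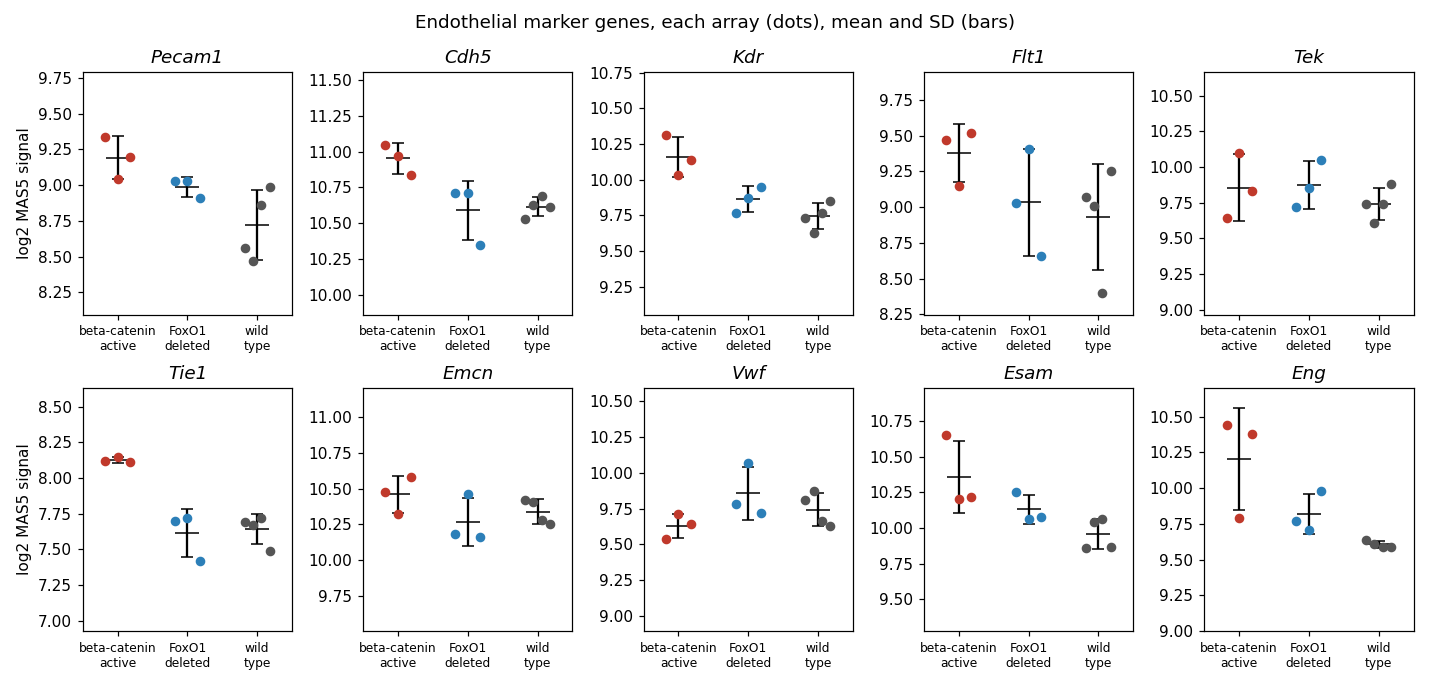
Log2 MAS5 signal (y axis, a span of 1.7 in each panel) of each endothelial marker gene in each array, by genotype (x axis: beta-catenin active, FoxO1 deleted, wild type). Dots are arrays, wide bars the group mean and whiskers the SD; Tie1 lies at 8.11 to 8.15 in the 3 arrays with active beta-catenin and at 7.72 or less in all others.

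Kdr is the main signalling receptor for VEGF in endothelium. Its signal was 10.31, 10.03 and 10.14 in the arrays with active beta-catenin, 9.77, 9.87 and 9.95 in those with FoxO1 deleted, and 9.73, 9.63, 9.77 and 9.85 in wild type. The arrays with active beta-catenin were above the 7 others, and the other 2 genotypes overlapped. The log2 difference of beta-catenin active minus wild type was 0.42 ± 0.10 (SE), or 1.33-fold, with a 95% interval of 0.21 to 0.62.

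Flt1, a VEGF receptor that also exists as a soluble decoy, was covered by 4 probe sets. The one used had 9.47, 9.15 and 9.52 with active beta-catenin, 9.03, 9.41 and 8.66 with FoxO1 deleted and 9.07, 9.01, 8.40 and 9.25 in wild type, so the genotypes overlapped. Its difference of beta-catenin active minus wild type was 0.45 ± 0.22 (adjusted p = 0.449), and 0.27 without wild type 3. The 3 other probe sets differed by 0.49, 0.47 and 0.09. In the first and second of these the array beta-catenin active 1 stood apart, at 9.21 against 8.18 and 8.32 and at 8.11 against 7.33 and 6.94 in beta-catenin active 2 and 3.

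Tie1, a receptor that pairs with Tek, gave the widest gap between genotypes. Its signal was 8.12, 8.15 and 8.11 with active beta-catenin, 7.70, 7.72 and 7.42 with FoxO1 deleted and 7.69, 7.67, 7.72 and 7.49 in wild type. The lowest array with active beta-catenin was 0.39 above the highest of the 7 others, and the other 2 genotypes covered the same range. Tie1 was 1.40-fold higher, at 8.13 ± 0.02 with active beta-catenin and 7.64 ± 0.10 in wild type (SD, n = 3 and 4), a log2 difference of 0.48 ± 0.14 (adjusted p = 0.166).

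Tek, the receptor for angiopoietins, did not share that pattern. It had 9.64, 10.10 and 9.83 with active beta-catenin, 9.72, 9.85 and 10.05 with FoxO1 deleted and 9.74, 9.61, 9.74 and 9.88 in wild type. All 3 genotypes overlapped, and the array beta-catenin active 1, the highest for Kdr and Eng, was the lowest of its group for Tek. The difference from wild type was 0.11 ± 0.12, with an interval of -0.16 to 0.39.

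Among the junction proteins, Pecam1 (CD31), which holds neighbouring endothelial cells together, had 9.34, 9.04 and 9.20 with active beta-catenin, 9.03, 9.03 and 8.91 with FoxO1 deleted, and 8.56, 8.47, 8.86 and 8.99 in wild type. The arrays with active beta-catenin cleared the others by only 0.01, and wild type 1 and 2 lay below wild type 3 and 4. The difference from wild type was 0.47 ± 0.14 (1.39-fold, adjusted p = 0.166).

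Cdh5, VE-cadherin, is the adhesion protein of endothelial adherens junctions, where its tail binds beta-catenin. It had 11.05, 10.97 and 10.84 with active beta-catenin, 10.71, 10.71 and 10.35 with FoxO1 deleted and 10.53, 10.63, 10.69 and 10.61 in wild type. The arrays with active beta-catenin were again above the 7 others, by 0.13 or more. The difference from wild type was 0.34 ± 0.10 (1.26-fold, adjusted p = 0.171). A second Cdh5 probe set was not kept, and its means were 6.28 with active beta-catenin, 6.22 with FoxO1 deleted and 6.30 in wild type, all under the table's median.

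Esam, a tight-junction adhesion molecule, had 10.65, 10.20 and 10.22 with active beta-catenin, 10.25, 10.06 and 10.08 with FoxO1 deleted and 9.86, 10.04, 10.06 and 9.87 in wild type. Active beta-catenin and wild type did not overlap, but FoxO1 deleted 1 reached into the range of active beta-catenin. The difference of beta-catenin active minus wild type was 0.40 ± 0.12 (1.32-fold, adjusted p = 0.171), and 0.25 without beta-catenin active 1.

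Eng, endoglin, a co-receptor for BMP and TGF-beta ligands on endothelium, had the largest difference of the 10 genes. Its signal was 10.44, 9.79 and 10.38 with active beta-catenin, 9.77, 9.71 and 9.98 with FoxO1 deleted and 9.64, 9.61, 9.59 and 9.59 in wild type. Beta-catenin active 2 stood apart from the other two of its group and within the range of FoxO1 deleted, while the wild-type arrays covered only 0.05. Eng averaged 10.20 ± 0.36 with active beta-catenin and 9.61 ± 0.02 in wild type (SD, n = 3 and 4), a difference of 0.60 ± 0.14 (1.51-fold, interval 0.28 to 0.91, adjusted p = 0.0925). With 1 array left out the difference ran from 0.48 to 0.80. It passed only without beta-catenin active 2 (0.80, adjusted p = 0.00771 in limma), and the highest adjusted p was 0.278. The second Eng probe set had 10.11, 9.54 and 9.92 with active beta-catenin and 9.25, 9.56, 9.40 and 9.36 in wild type, where beta-catenin active 2 fell among the wild-type arrays.

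Emcn, endomucin, a sialomucin of capillaries and veins, had 10.48, 10.32 and 10.58 with active beta-catenin, 10.18, 10.46 and 10.16 with FoxO1 deleted and 10.42, 10.41, 10.28 and 10.25 in wild type. The genotypes overlapped, and the difference of beta-catenin active minus wild type was 0.12 ± 0.10 (interval -0.10 to 0.34). Vwf, von Willebrand factor, which endothelial cells store and release in clotting, had 9.54, 9.71 and 9.64 with active beta-catenin, 9.78, 10.07 and 9.72 with FoxO1 deleted and 9.81, 9.87, 9.66 and 9.63 in wild type. Its difference from wild type was -0.11 ± 0.11 (interval -0.35 to 0.12), opposite in sign to the other 9 genes. The upper bounds of Emcn and Vwf, 0.34 and 0.12, lie below the estimate of 0.42 for Kdr; the differences between genes were not tested.

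**Figure D2:**
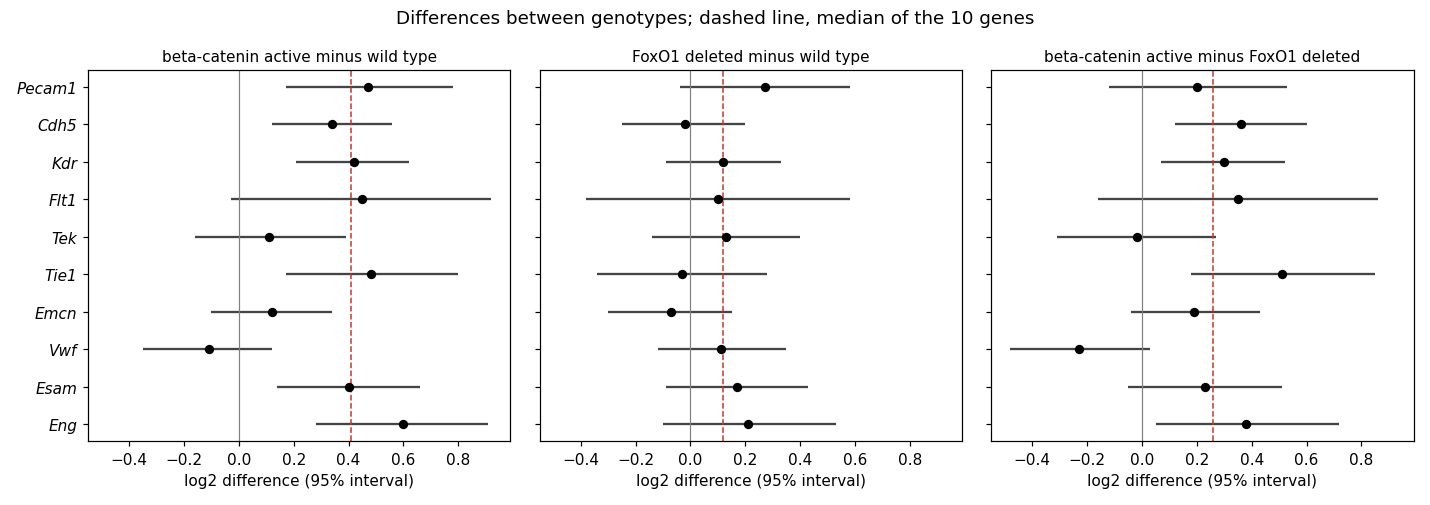
Log2 difference (x axis) of each endothelial marker gene (y axis) in the 3 comparisons, with points for estimates, lines for 95% intervals from limma and a dashed line for the median of the 10 genes. In beta-catenin active minus wild type the intervals of 6 genes lie above 0 and the median is 0.41, against a median of 0.12 in FoxO1 deleted minus wild type.

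The second comparison asks the same of FoxO1 loss. The 10 genes lay close to wild type, with 7 positive (50.0% of all genes) and 3 negative differences, a median of 0.12 (0.00 over all genes) and a range of -0.07 for Emcn to 0.27 for Pecam1. Without FoxO1 deleted 2 the median was 0.06. The difference of Pecam1 was 0.52 among low-Xist arrays alone (FoxO1 deleted 1 against wild type 1 and 2). Among high-Xist arrays (FoxO1 deleted 2 and 3 against wild type 3 and 4) it was 0.04. Xist is the RNA of an inactive X chromosome. None passed limma's test (smallest adjusted p = 0.651), where 0.0264% of all genes were called, and 0 of 10 had an unadjusted p under 0.05, against 7.83% of all genes (3.88% higher). The groups did not overlap for 1 gene, Eng, with 9.71 or more in FoxO1 deleted and 9.64 or less in wild type (difference 0.21 ± 0.14), where 4.59% of all genes lay apart in that direction. The widest interval was that of Flt1, from -0.38 to 0.58, so differences of the size seen with active beta-catenin lie within it. Those of Pecam1 (-0.04 to 0.58) and Esam (-0.09 to 0.43) also hold their differences with active beta-catenin, 0.47 and 0.40. For Kdr (-0.09 to 0.33) and Eng (-0.10 to 0.53) the upper bounds lay below theirs, 0.42 and 0.60. For Cdh5 (-0.25 to 0.20) and Tie1 (-0.34 to 0.28) they also lay below theirs, 0.34 and 0.48. The intervals of Emcn (-0.30 to 0.15), Tek (-0.14 to 0.40) and Vwf (-0.12 to 0.35) hold theirs, 0.12, 0.11 and -0.11.

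A direct comparison sets active beta-catenin against FoxO1 deletion. The median difference was 0.26, with 8 of the 10 genes positive (50.3% of all genes), and none passed limma's test (smallest adjusted p = 0.291, for Tie1), a call made for 0.669% of all genes (0.581% higher with active beta-catenin). At an unadjusted p under 0.05 there were 4 of 10, all higher with active beta-catenin (4.75% of all genes in that direction). They were Tie1 (0.51 ± 0.15), Cdh5 (0.36 ± 0.11), Kdr (0.30 ± 0.10) and Eng (0.38 ± 0.15). Without beta-catenin active 1, or without FoxO1 deleted 1, only Cdh5 and Tie1 of the 10 were below 0.05. The difference of Eng ran from 0.26 to 0.59 with 1 array left out (0.59 without beta-catenin active 2) and passed in none of these fits. All arrays with active beta-catenin lay above all with FoxO1 deleted for 4 genes, Pecam1, Cdh5, Kdr and Tie1 (5.39% of all genes). Vwf was the one gene with all arrays of active beta-catenin below all of FoxO1 deleted (-0.23 ± 0.12, adjusted p = 0.673), where 4.16% of all genes lay apart in that direction. Each pair of these comparisons shares a group of arrays, so they are not independent of one another.

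By the means of the groups, 8 of the 10 genes were highest with active beta-catenin. In 5 of them (Pecam1, Kdr, Flt1, Esam and Eng) FoxO1 deleted came second and wild type last, and in 3 (Cdh5, Tie1 and Emcn) FoxO1 deleted came last. In Tek the order was FoxO1 deleted, active beta-catenin, wild type, and in Vwf FoxO1 deleted, wild type, active beta-catenin. The ranges of FoxO1 deleted and wild type, next to each other in those 8 orders, overlapped in every gene but Eng. For 4 genes, Pecam1, Cdh5, Kdr and Tie1, the arrays with active beta-catenin lay above all 7 others, as for 2.54% of all genes.

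**Figure D3:**
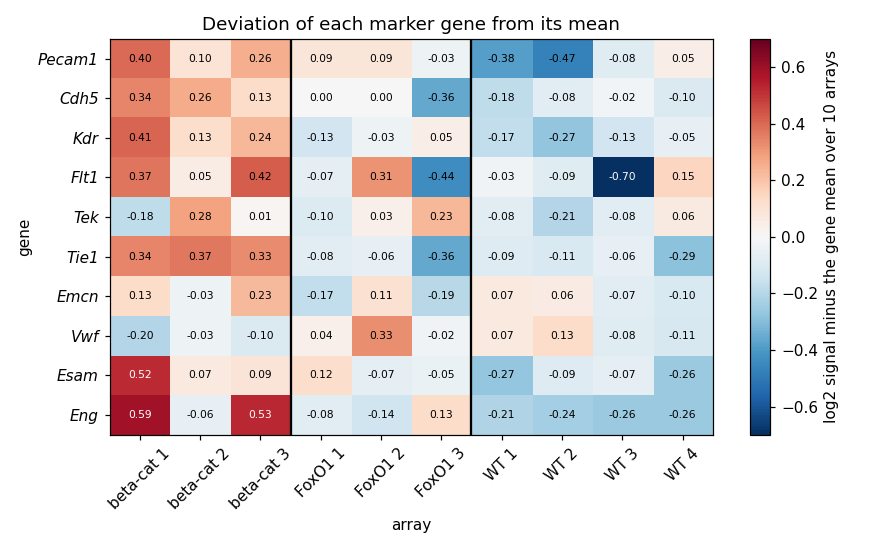
Deviation of each endothelial marker gene (rows) in each array (columns, by genotype) from that gene's mean over the 10 arrays, in log2 units (colour and printed values). Kdr, Cdh5, Tie1, Pecam1, Esam and Flt1 are above their means in all 3 arrays with active beta-catenin. Vwf is below its mean in all 3, and Tek is below its mean in beta-catenin active 1.

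The 10 genes did not move as 1 block from array to array. The mean of their deviations was 0.27, 0.11 and 0.21 in the arrays with active beta-catenin, -0.04, 0.06 and -0.10 with FoxO1 deleted and -0.13, -0.14, -0.16 and -0.09 in wild type. Over all 10 arrays the median Pearson correlation of the 45 pairs of genes was 0.49, with 32 positive. After each genotype's mean was taken off, the median was 0.08, with 23 positive and 22 negative, from -0.76 for Tek and Esam to 0.71 for Cdh5 and Tie1. All genes of an array share its scaling, and 10 arrays are few, so these values are descriptions. Tek (r = 0.06) and Vwf (r = -0.31) were least like the mean of the set over the arrays, and Kdr (r = 0.90) most.

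Outside the lists, the genes most like the mean of the set over the 10 arrays were Bambi (r = 0.959), a decoy receptor for BMP and TGF-beta ligands, Nr4a2 (0.958), Sost (0.955), the Wnt inhibitor of osteocytes, Pcp4l1 (0.945), Slc13a5 (0.938), Fbxw4 (0.935), Boc (0.932) and Ptgs2 (0.930). The mean of the set is itself high with active beta-catenin, so the choice of these 8 genes fixes their direction. Their differences of beta-catenin active minus wild type ran from 0.45 for Boc to 2.53 for Ptgs2, as a description. Within genotypes the 8 most alike were Gpn3, Zfp119b, Edem3, Heatr3, Nckap5l, Fbxw4, Rad17 and Zfp719 (r = 0.959 to 0.979), of which Fbxw4 alone is in both groups. These were picked as the highest of all genes outside the lists, so the choice fixes that their r is high. The members' own r with that mean ran from -0.60 for Tek to 0.78 for Flt1.

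Of 28 other endothelial genes 25 were measured. With active beta-catenin 21 of the 25 had a positive difference from wild type (median 0.26), and none passed limma's test, while 11 were higher and 2 lower at an unadjusted p under 0.05 (6.3% and 5.79% of all genes). The smallest p-values were those of Gpihbp1, which carries lipoprotein lipase across capillaries, and Cd93, a surface lectin-like protein. Gpihbp1 had 11.17, 10.98 and 10.87 with active beta-catenin, against 10.59, 10.54, 10.63 and 10.36 in wild type (difference 0.48 ± 0.12, adjusted p = 0.0932). Cd93 had 12.00, 11.86 and 11.79 with active beta-catenin, against 11.40, 11.43, 11.57 and 11.47 in wild type (0.42 ± 0.10, adjusted p = 0.101). Not every gene of the list ran this way. Mmrn1, a multimerin of platelets and endothelium, had 6.72, 7.06 and 7.03 with active beta-catenin, against 7.27 to 8.04 in wild type (difference -0.76 ± 0.26, adjusted p = 0.239). With FoxO1 deleted 18 of the 25 were positive (50.0% of all genes), with a median of 0.21. None passed, where 0.0264% of all genes were called. At an unadjusted p under 0.05 in limma, 7 were higher (3.88% of all genes). Ramp2 (0.23 ± 0.08) and Cyyr1 (0.34 ± 0.12) had the smallest p-values.

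Single genes of the surrounding pathways did pass. Beside the lists that follow, 0.784% of all genes were called against wild type (0.599% higher with active beta-catenin). Against FoxO1 deleted, 0.581% of all genes were called higher with active beta-catenin. Among 20 measured of 22 endothelial transcription factors, Epas1 (HIF-2 alpha), an oxygen-regulated factor, rose and 19 did not pass. Epas1 had 12.84, 12.21 and 12.36 with active beta-catenin, 12.01, 11.94 and 12.16 with FoxO1 deleted and 11.77, 11.79, 11.74 and 11.68 in wild type. It was 1.65-fold higher with active beta-catenin than in wild type (0.72 ± 0.13, adjusted p = 0.0263). The call was lost without any 1 of the wild-type arrays or beta-catenin active 3 (highest adjusted p 0.0855). Erg and Fli1, ETS factors of endothelium, differed by intervals of -0.32 to 0.28 and -0.20 to 0.42.

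Of 10 VEGF ligands, co-receptors and guidance genes beside Kdr and Flt1, Sema3e rose and 9 did not pass. Sema3e, a secreted semaphorin that repels vessels through Plxnd1, had 8.07, 7.89 and 8.12 with active beta-catenin, 6.54, 6.46 and 6.05 with FoxO1 deleted and 6.02, 6.40, 6.91 and 6.34 in wild type. Its difference was 1.61 ± 0.26 against wild type (3.05-fold, adjusted p = 0.0181) and 1.68 ± 0.27 against FoxO1 deleted (3.20-fold, adjusted p = 0.0180). Both other genotypes lay under the table's median, so these folds are inexact. Sema3e exceeded the filter's level only in the 3 arrays with active beta-catenin, so it entered the test through the group where it is high, and the stricter filter leaves it out. The call against wild type was lost without wild type 1, 2 or 4 or beta-catenin active 1 or 3 (highest adjusted p 0.0802), and that against FoxO1 deleted without any array with active beta-catenin or FoxO1 deleted 1 or 3 (highest 0.103). Vegfa, the main ligand of Kdr, had 9.79, 9.58 and 9.30 with active beta-catenin, 9.11, 9.69 and 8.62 with FoxO1 deleted and 9.28, 9.16, 9.12 and 9.20 in wild type. The arrays with active beta-catenin were above wild type by 0.02 or more, and the difference had an interval of -0.09 to 0.82 (adjusted p = 0.533).

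None of the 6 measured genes listed with the angiopoietins and Tie receptors, angiopoietin-like genes among them, passed (median 0.28). Ptprb, the phosphatase that restrains Tek, had 10.35, 9.75 and 9.78 with active beta-catenin, against 9.40, 9.53, 9.72 and 9.60 in wild type (0.40 ± 0.15, adjusted p = 0.312). Angpt1, the activating ligand of Tek, differed by 0.38 ± 0.18 (adjusted p = 0.420). None of the 13 measured BMP and TGF-beta partners of Eng passed, with a median of 0.21, Id3 (0.31 ± 0.12), a target of BMP signals, and Tgfbr1 (-0.30 ± 0.12) having the smallest p-values.

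Of 11 Notch genes of endothelium, Hey1, a Notch target, rose and 10 did not pass. Hey1 had 10.63, 10.17 and 10.53 with active beta-catenin, 8.50, 9.29 and 8.22 with FoxO1 deleted and 9.17, 9.19, 8.69 and 8.60 in wild type (1.53 ± 0.24 against wild type, adjusted p = 0.0181). Its call was lost without wild type 3 or 4 or beta-catenin active 1 or 3 (highest adjusted p 0.0826). Dll4, the Notch ligand of sprouting tips, had 6.96, 7.11 and 6.69 with active beta-catenin, against 7.31, 7.36, 7.04 and 6.94 in wild type, at or near the table's median. Hey1 is also made by osteoblasts.

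Among 6 lymphatic and sinusoidal genes Pdpn rose and 5 did not pass. Pdpn, podoplanin, marks lymphatic vessels and is also known from early osteocytes. It had 12.74, 12.74 and 12.81 with active beta-catenin, 11.82, 11.79 and 11.89 with FoxO1 deleted and 11.67, 11.70, 12.01 and 11.61 in wild type (2.02-fold against wild type, adjusted p = 7.12e-04), and its calls against both genotypes held whichever array was left out. Lyve1 of lymphatic vessels, by contrast, had 8.48, 10.06 and 8.90 with active beta-catenin, against 8.82, 8.81, 9.94 and 9.88 in wild type, with no separation. Of 10 vascular basement membrane genes all 10 had positive differences (median 0.32), Col4a1 rose and 9 did not pass. Col4a1, a collagen IV chain, had 14.08, 13.85 and 13.80 with active beta-catenin, 13.69, 13.51 and 13.73 with FoxO1 deleted and 13.27, 13.12, 13.37 and 13.37 in wild type (1.54-fold against wild type, adjusted p = 0.0137). That call was lost without wild type 1 or 2 or beta-catenin active 1 (highest adjusted p 0.0522).

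**Figure D4:**
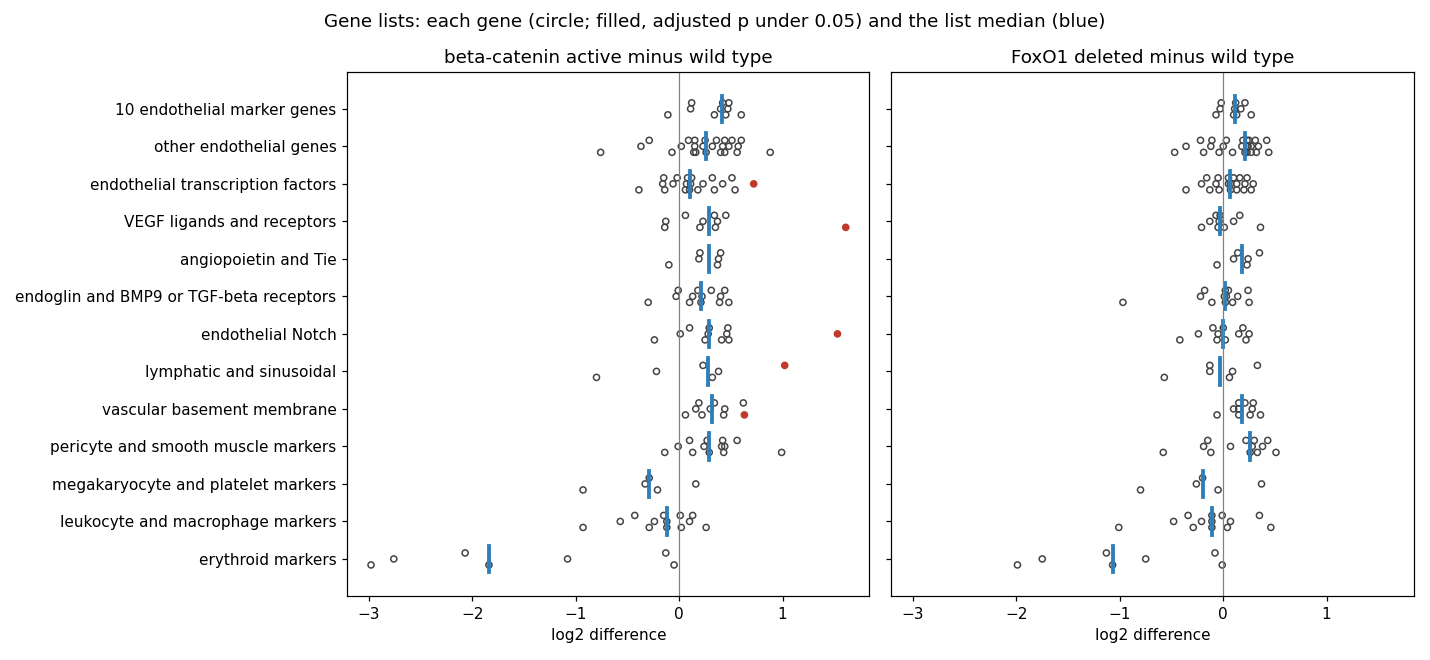
Log2 differences (x axis) of each gene (circles, filled in red at an adjusted p under 0.05) in the 10 endothelial marker genes and 12 other lists (y axis), with list medians in blue, for beta-catenin active and FoxO1 deleted, each minus wild type; the 10 genes are left out of the other lists. With active beta-catenin the endothelial medians run from 0.10 to 0.41 and those of megakaryocyte, leukocyte and erythroid markers from -1.84 to -0.12. Osteoblast, chondrocyte and skeletal muscle lists, with medians of 0.11, 0.73 and 0.21 in that comparison, are not drawn.

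Markers of other cells that share these transcripts were set beside them. Of 12 megakaryocyte and platelet markers 3 lay under the table's median on every array. Of the 5 measured, 4 had a negative difference with active beta-catenin (median -0.29), and their summed linear signal was 3286 to 5211 with active beta-catenin, 3238 to 4388 with FoxO1 deleted and 3666 to 4466 in wild type. Of 13 leukocyte and macrophage markers 8 were negative (median -0.12), with sums of 26502 to 27640 with active beta-catenin, 21157 to 34059 with FoxO1 deleted and 23523 to 34419 in wild type. Of 13 markers of pericytes and smooth muscle cells, which wrap vessels, 11 had a positive difference (median 0.29) and none passed, with sums of 38405 to 47738 with active beta-catenin, 32112 to 37649 with FoxO1 deleted and 28774 to 33325 in wild type. Rgs5, a pericyte marker, had 13.52, 12.44 and 12.57 with active beta-catenin, 12.50, 12.27 and 12.08 with FoxO1 deleted and 11.79, 11.73, 11.99 and 11.89 in wild type (0.99 ± 0.22 against wild type, adjusted p = 0.0684), and Abcc9 differed by 0.56 ± 0.12 (adjusted p = 0.0604). The sum over the 10 endothelial genes was 9705 to 10992 with active beta-catenin, 8491 to 9336 with FoxO1 deleted and 8284 to 8442 in wild type. Of the 7 measured erythroid markers 7 had a negative difference (median -1.84) and none passed. The sums were 3537 to 4040 with active beta-catenin, 3596 to 5829 with FoxO1 deleted and 4401 to 7733 in wild type. Chondrocyte markers had 9 of 9 positive differences with active beta-catenin (median 0.73) and with FoxO1 deleted (median 1.14), none passing, and sums of 21162 to 28842, 20584 to 55966 and, in wild type, 12448 to 19071. The osteoblast markers (6 of 7 positive, median 0.11) and skeletal muscle markers (7 of 10 positive, median 0.21) had sums that overlapped between active beta-catenin and wild type. Mean deviations of the muscle markers were -0.68 and -0.67 in wild type 1 and 2, and 0.51 and 0.50 in 3 and 4. They were -0.83, 0.69 and 0.29 in beta-catenin active 1, 2 and 3, and 0.67, -0.52 and 0.03 with FoxO1 deleted. The lowest array was thus beta-catenin active 1. Against wild type, 0.784% of all genes passed with active beta-catenin and 0.0264% with FoxO1 deleted. Unadjusted p-values under 0.05 in limma are counted here. With active beta-catenin, 5 of 13 pericyte, 3 of 9 chondrocyte and 1 of 7 osteoblast markers were higher (6.3% of all genes). Lower were 5 of 7 erythroid and 2 of 13 leukocyte markers (5.79%). With FoxO1 deleted, 9 of 9 chondrocyte, 3 of 13 pericyte, 1 of 13 leukocyte and 1 of 7 osteoblast markers were higher (3.88%). Lower were 4 of 7 erythroid and 1 of 13 leukocyte markers (448 of 11357 genes). The part of these other cell types in the endothelial values was not tested.

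Features of the arrays touch these values. Xist signal, which marks an inactive X chromosome, was 5.91 to 7.06 with active beta-catenin, 7.88, 14.22 and 14.43 with FoxO1 deleted and 7.29 to 14.25 in wild type, where replicates 1 and 2 were low and 3 and 4 high. Signal of Eif2s3y, a gene of the Y chromosome, was 10.78 to 11.29 in the 6 low-Xist arrays and 2.84 to 4.34 in the 4 others. All arrays with active beta-catenin were thus male by these signals, while the other genotypes were mixed. Sex and genotype are therefore partly confounded. In the 6 arrays with low Xist signal alone the median difference of the 10 genes between active beta-catenin and wild type was 0.39, and the same 6 of 10 had an unadjusted p under 0.05 (7.56% of all genes higher). Against FoxO1 deleted, which has 1 array with low Xist signal, Kdr was the only one of the 4 genes left there (4.11% of all genes higher), and with a term for Xist signal Kdr and Pecam1 were below 0.05 (2.87% of all genes higher). Wild type 1 and 2 correlated at 0.988 and wild type 3 and 4 at 0.987 over the kept probe sets. With each such pair averaged to 1 unit the 6 genes kept an unadjusted p under 0.05 (3.71% of all genes higher), with adjusted p from 0.529 for Kdr to 0.720 for Cdh5. For Actb, whose 3' and 5' probe sets gauge how intact the RNA was, the 3' signal exceeded the 5' signal by 0.85 to 0.88 with active beta-catenin, 0.80 to 0.99 with FoxO1 deleted and 0.60 to 0.77 in wild type, so this difference separates wild type from both other genotypes. The same measure for Gapdh overlapped between genotypes, at 0.02 to 0.31 with active beta-catenin, 0.18 to 0.33 with FoxO1 deleted and 0.00 to 0.22 in wild type. The part of RNA quality in the result was not tested.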

How the data were processed

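The authors' deposited table holds log2 MAS5 signal for 45101 probe sets on 10 arrays. The submitters' processing notes name MAS5 and give no version, and the labels' protocols give 500 ng of RNA as input. The log2 base follows from the values: the linear signal has a 2% trimmed mean near 500 in every array (499.993 to 500.013), which is the only scaling visible, and low values run down to -3.86 without a floor. The number of arrays limits the precision. Genes were named from the platform annotation (34958 probe sets with 1 gene, 932 with several, 9211 with none listed), and for 99.4% of the probe sets with 1 gene the gene ID was found in RefSeq (GRCm38.p6). Genome coordinates are given for promoters only.

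The filter left 20127 probe sets. The log2 values of all 10 arrays were tested in 1 fit by limma 3.58.1 (R 4.3.3), with 1 mean per genotype, no covariates, eBayes moderation along a mean-variance trend, two-sided p-values and Benjamini-Hochberg adjustment over 11357 genes at 0.05. Other probe sets of a gene come from the same fit over the 20127. Folds are log2 differences turned to the linear scale, and summed signal is the sum of linear signals. The fit was tested on simulated data with independent noise for each array. That setting leaves out the likeness of wild type 1 to 2 and of 3 to 4. Replicate numbers were not used as a block. The members and lists were chosen with earlier results of these data known. Named genes are all 10 members, list genes that pass or have the 2 smallest p-values, and the 8 of most similar pattern. Vegfa, Erg, Fli1, Dll4, Lyve1 and Mmrn1 were added after their values were seen. Alternatives were other filters, scalings, gene summaries, designs and weights, and leaving out each array. Those by Xist signal alone were chosen after seeing the data.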

Additional observations from a re-analysis of the deposited data

How the results depend on the processing

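Replicate numbers were not taken to pair the arrays: correlations of deviations between same-numbered arrays ran from -0.261 to 0.194. With the replicate block, 16, 0 and 23 genes passed for beta-catenin active minus wild type, FoxO1 deleted minus wild type and beta-catenin active minus FoxO1 deleted, against 89, 3 and 76 without it (the 0 stands beside 636 at an unadjusted p under 0.05 in limma; wild type 4 has no partner and left this fit). In the first comparison 141 genes passed with only the groups compared, 149 with array weights, 9 with similar wild-type arrays averaged, 10 with a term for Xist signal and 175 in low-Xist arrays, and 31 (without wild type 1) to 130 (without FoxO1 deleted 3) when 1 array was left out. In the second, 5 passed with quantile scaling (2 higher, 3 lower; 1 and 1 with median scaling, 1 and 2 as reported), 1 with only the groups compared, 29 with array weights, 5 with no mean-variance trend, 96 in low-Xist arrays, and 0 in limma with similar wild-type arrays averaged or in high-Xist arrays (345 and 972 at an unadjusted p under 0.05). Leaving out 1 array gave 0 (without FoxO1 deleted 1 or 3, with 1043 and 799) to 7. In the third, 25 passed with only the groups compared, 49 with similar wild-type arrays averaged, 6 with a term for Xist signal and 12 in low-Xist arrays, and 29 (without FoxO1 deleted 1) to 62 with 1 array left out. The cause of these moves was not tested.

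Of the 10 endothelial genes, 1 passed against wild type with array weights, Eng (0.59, adjusted p = 0.0491), and 0 to 1 with 1 array left out (Eng without beta-catenin active 2); none did in the other alternatives run. Their median difference stayed between 0.31 and 0.47 in that comparison, and 6 or 7 of 10 were higher at an unadjusted p under 0.05, except with the stricter filter, which leaves Tie1 out (5 of 9); the share of all genes ran from 3.71% to 7.56%. For FoxO1 deleted minus wild type, 0 to 2 of 10 were below 0.05 (Esam and Pecam1 with array weights, with 5.81% of all genes higher). For beta-catenin active minus FoxO1 deleted, 2 to 5 genes were higher at an unadjusted p under 0.05, against 2.87% to 6.13% of all genes. Vwf was lower at that level with median scaling and without FoxO1 deleted 3. The low-Xist fit, with 1 FoxO1 deleted array, is left out of this last count. Of the list genes called against wild type, Pdpn passed in every alternative run, while Epas1, Sema3e, Hey1 and Col4a1 each missed the threshold with the replicate block (adjusted p = 0.143, 0.145, 0.0939 and 0.0697), with similar wild-type arrays averaged and with a term for Xist signal. Epas1 also missed it with no mean-variance trend (adjusted p = 0.0614) and in low-Xist arrays (0.117). Differences that changed sign were small and passed nowhere. For FoxO1 deleted minus wild type, Cdh5 was 0.02 with median scaling, 0.05 with array weights and 0.13 in low-Xist arrays, and Tie1 0.01, 0.03 and 0.02. Flt1 was -0.01 and Vwf -0.06 in low-Xist arrays, and Emcn 0.04 in high-Xist arrays. Tek in beta-catenin active minus FoxO1 deleted was 0.10 with array weights, 0.12 with a term for Xist signal and 0.14 in low-Xist arrays. With 1 array left out, Tek ran from -0.01 to 0.22 against wild type and from -0.14 to 0.09 against FoxO1 deleted, and for FoxO1 deleted minus wild type Cdh5 ran from -0.08 to 0.10, Flt1 from -0.09 to 0.29 and Tie1 from -0.08 to 0.07.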
